A study of Homo sapiens with 6 samples.

Results

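The set described here holds 10 genes of the epithelial to mesenchymal transition (EMT) and of transforming growth factor beta (TGF-beta) signalling: TGFB1, TGFB2, TGFBR2, SMAD7, TGFBI, SNAI1, SNAI2, ZEB1, VIM and FN1. They were taken by gene symbol in GENCODE release 29, and all 10 were found among the 58735 gene identifiers that each library lists. RNA sequencing was done on wild-type cells labelled A549, an established human non-small cell lung cancer line, as 3 untreated libraries and 3 libraries from cells exposed to 2 µM of B35, a compound described as blocking the histone demethylase LSD1. Both groups were grown in DMEM with serum and collected at 72 h. No solvent is named for the untreated cells, and separate cultures are not stated for the replicates. The p-values therefore measure the spread between these libraries, and it may be technical.

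The cells were checked against genes that define the A549 line, and some of these went against the label. A549 is known to have lost the CDKN2A tumour suppressor locus and the neighbouring MTAP gene. CDKN2A was nevertheless measured at 115 to 178 CPM (counts after scaling of the libraries to 1 total) over the 6 libraries, and MTAP at 21.9 to 26.7 CPM. A549 is also known for abundant aldo-keto reductases, whereas AKR1B10 stayed at 0.444 to 1.45 CPM and AKR1C1 at 11 to 33.2 CPM. NQO1, a quinone reductase also known to be abundant in A549, was at 230 to 299 CPM. The epithelial keratins KRT7, KRT8 and KRT18 were abundant, but the keratin KRT19 was at only 0.119 to 0.443 CPM. E-cadherin, CDH1, was also low at 0.264 to 1.55 CPM, and EPCAM was at 3.09 to 7.40 CPM. The line is therefore called "labelled A549" below. Most markers of other cell types were low in both groups. The highest were COL1A1, at 18.9 to 25.5 CPM, and the endothelial gene CDH5, at 4.85 to 8.66 CPM. Of 8 fibroblast markers 6 stayed under 1 CPM in every library and PDGFRA had no count. The fibroblast list summed to 27.2 to 27.3 CPM in untreated and 19.8 to 22.8 CPM in B35 libraries, nearly all of it from COL1A1. Endothelial markers summed to 5.91 to 9.40 and 7.80 to 9.88 CPM, mostly from CDH5, with KDR at 0. Leukocyte markers summed to 2.14 to 3.04 and 2.79 to 3.33 CPM with CD68 and CD3E at 0. CD68 shares 1939 of its 2189 exon bases with AC016876.1 and AC016876.2, the latter on its own strand, which held 566 counts. Reads in those bases may have been given to no gene, so the 0 of CD68 does not show that it is absent.

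In EMT, epithelial cells loosen their junctions, take up a vimentin cytoskeleton and lay down fibronectin. TGF-beta ligands are secreted in a latent form, bind the receptor TGFBR2, which recruits and activates TGFBR1, and signal through SMAD2, SMAD3 and SMAD4. SMAD7 is induced by the pathway and blocks it. The zinc finger factors SNAI1, SNAI2 and ZEB1 repress epithelial genes such as CDH1 through E-boxes. SNAI1 and SNAI2 begin with a SNAG domain, a short stretch that resembles the histone H3 tail and through which SNAI1 is known to recruit LSD1.

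The sequences just upstream of VIM, FN1 and TGFBI are shown because these are the 3 members that rose together. RefSeq (GRCh38.p14) start windows were at hand for 8 of the 10 members, and each sequence ends before the outermost start that RefSeq or GENCODE gives. They run 5′ to 3′ on the gene's strand, and capitals mark the GC box, GGGCGG or CCGCCC, known as the site of the factor SP1. The VIM window is chr10:17227991-17228240 on the plus strand, that of FN1 chr2:215436173-215436318 on the minus strand and that of TGFBI chr5:136028738-136028894 on the plus strand.
VIM: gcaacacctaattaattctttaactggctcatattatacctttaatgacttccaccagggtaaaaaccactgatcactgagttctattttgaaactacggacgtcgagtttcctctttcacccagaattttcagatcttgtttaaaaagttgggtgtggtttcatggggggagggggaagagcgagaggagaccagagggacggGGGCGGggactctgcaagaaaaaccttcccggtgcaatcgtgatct
FN1: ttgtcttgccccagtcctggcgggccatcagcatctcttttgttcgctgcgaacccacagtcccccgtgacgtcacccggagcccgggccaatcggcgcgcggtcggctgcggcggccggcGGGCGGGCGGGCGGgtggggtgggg
TGFBI: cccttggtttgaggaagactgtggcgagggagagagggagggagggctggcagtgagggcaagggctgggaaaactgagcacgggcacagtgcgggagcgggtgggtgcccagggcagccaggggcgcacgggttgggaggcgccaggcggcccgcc
The VIM window of 250 bases held 1 GC box, and 42.6% of the 35116 start windows in the table hold at least 1 in the same bases. The FN1 window of 146 bases held 3 overlapping GC boxes, against at least 1 in 25.1% and at least as many in 3.7% of windows. The TGFBI window of 157 bases held none, against 27.1%. The SMAD box (CAGAC or GTCTG) was in none of the 3 windows. Over the same bases as VIM, FN1 and TGFBI it is in 38%, 25.5% and 27% of all windows. The E-box bound by SNAI and ZEB factors (CACCTG or CAGGTG) was also in none of the 3. It is in 17.5%, 11.3% and 12.1% of all windows, in the same order. Both strands were searched, and no match says only that these letters are not in these bases.

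Libraries held 17141478 to 18530670 counts. Of 14773 genes tested, 1303 rose (8.82%) and 973 fell (6.59%) at a Benjamini-Hochberg adjusted p under 0.05 in the quasi-likelihood test of edgeR. All 10 members had enough counts to test, with 79 to 153 counts per library for SNAI1, the lowest. Of the 10, 3 rose (VIM, FN1 and TGFBI) and none fell. At an unadjusted p under 0.05, 7 members were higher and none lower, against 16.6% and 14.1% of all genes. DESeq2 and limma-voom each called 3 higher and none lower. The median log2 fold change of the members was 0.34, beside 0.0067 for all genes tested. The members were chosen with earlier results of these data known, so their difference from all genes is no test of them. The shares of all genes that rose and fell were 7.91% and 7.49% with DESeq2 and 8.5% and 6.59% with limma-voom. With other scaling they were 8.61% and 6.88% (RLE, 3 members higher) or 10% and 5.5% (upper quartile, 4 members). Other filters gave 5.85% and 4.59% (every gene with a count, 4 members) or 8.98% and 7.12% (mean of 1 CPM or more, 3 members), robust dispersion 8.89% and 6.66% (4 members), and GC and length trends taken out 12.5% and 14.7% (5 members). Without untreated replicates 1, 2 and 3 they were 4.36% and 2.76%, 5.2% and 3.3%, and 3.87% and 1.94%, and 2 members rose each time. Without B35 replicate 2 or 3 they were 6.14% and 4.76% or 6.36% and 4.21%, with 3 members higher, and no member was lower under any of these.

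In 7 members every B35 library lay above every untreated library, as it did in 18.8% of all genes tested. B35 replicate 1 stood apart from the other B35 libraries on the second principal component (20.9% of the variance), and mitochondrial genes took 5.20% of its counts, against 3.52% to 4.35% in the other 5 libraries.

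**Figure D1:**
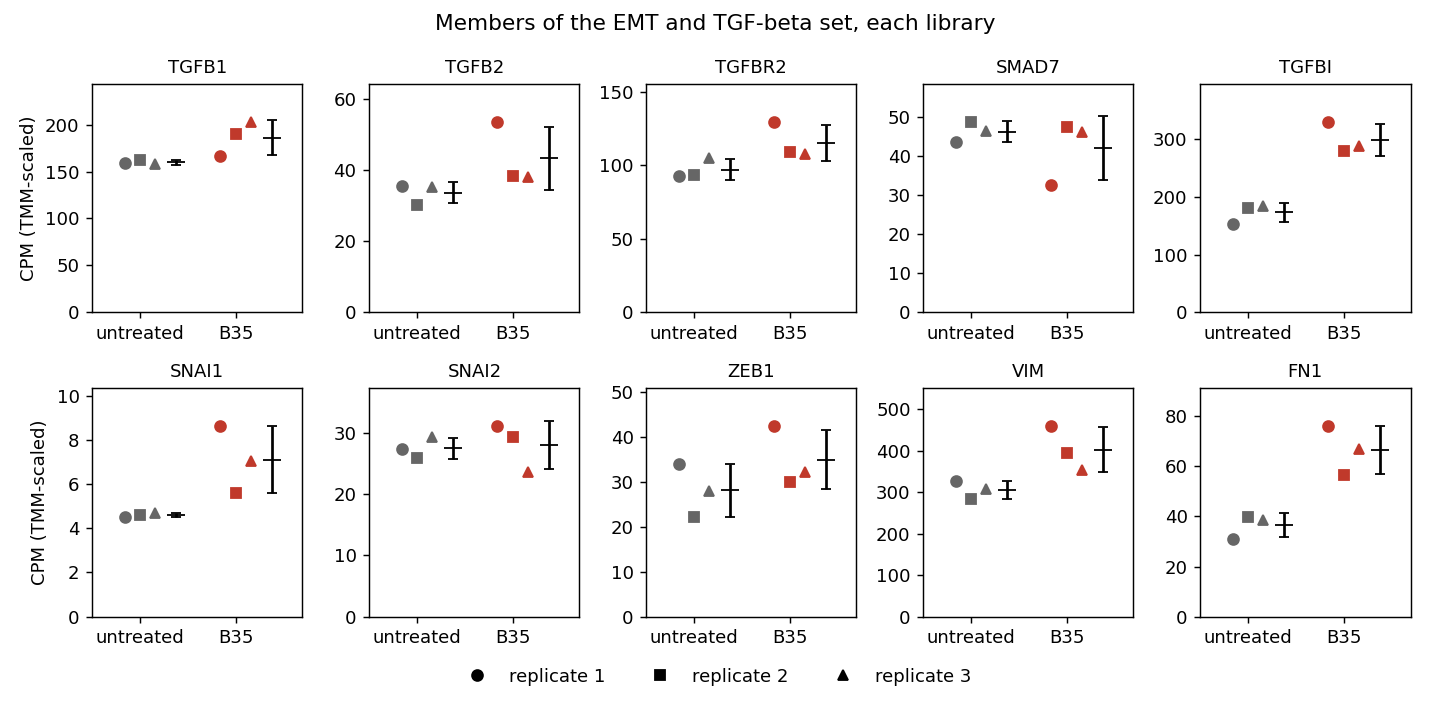
CPM after TMM scaling (y axis from 0) of each member in the 3 untreated (grey) and 3 B35 (red) libraries, with replicates 1 to 3 as circle, square and triangle and mean ± SD beside them. The groups do not overlap for TGFBI, FN1 and VIM, and they overlap for SMAD7, SNAI2 and ZEB1.

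TGFBI and FN1 had the clearest rises. TGFBI, named for its induction by TGF-beta, encodes a secreted matrix protein that binds collagen and integrins (ENSG00000120708, chromosome 5, 136028895 to 136063818, plus strand, hg38). It was measured at 154, 181 and 184 CPM in untreated replicates 1 to 3 and at 330, 279 and 287 CPM in B35 replicates 1 to 3. The lowest B35 library lay well above the highest untreated one. Its log2 fold change was 0.79 ± 0.11 (SE), a 1.72-fold rise (edgeR adjusted p = 0.00117). The call held in all 15 alternatives, with log2 fold changes of 0.71 to 0.83. In these bulk samples, more cells with a transcript and more transcript per cell cannot be told apart.

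FN1 encodes fibronectin, the matrix glycoprotein that mesenchymal cells assemble around themselves (ENSG00000115414, chromosome 2, 215360440 to 215436172, minus strand). Its untreated libraries held 30.9, 39.9 and 38.7 CPM and its B35 libraries 76.2, 56.8 and 66.9 CPM. Every B35 library exceeded every untreated one. FN1 rose 1.83-fold (log2 0.87 ± 0.13, edgeR adjusted p = 0.00259), and it too passed in all 15 alternatives, with log2 fold changes of 0.76 to 0.97.

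VIM encodes vimentin, the intermediate filament of mesenchymal cells, and was the member with the highest level per length in untreated cells (ENSG00000026025, chromosome 10, 17228259 to 17237593, plus strand). It was measured at 327, 283 and 306 CPM in untreated cells and 459, 394 and 354 CPM in B35 cells. The gap between the lowest B35 and the highest untreated library was small. VIM rose 1.32-fold (log2 0.40 ± 0.11, edgeR adjusted p = 0.0332). The call held in 11 of 15 alternatives and was lost without untreated replicate 1, 2 or 3 (edgeR adjusted p = 0.0674, 0.131 and 0.130) or B35 replicate 2 (0.0712). Its exons share 1260 bases with 2 antisense genes that held 110 counts in all, and the counting is not stated to use strand.

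The transcription factors of the set were less clear. SNAI1, the factor with the best known tie to LSD1, was at 4.52, 4.60 and 4.70 CPM in untreated cells, which were very close to each other (ENSG00000124216, chromosome 20, 49982999 to 49988886, plus strand). The B35 libraries were all higher, at 8.65, 5.61 and 7.06 CPM, but spread more widely. The log2 fold change of 0.63 ± 0.19 narrowly missed the threshold (edgeR adjusted p = 0.0508). SNAI1 passed in 5 of 15 alternatives, among them upper-quartile scaling (0.0461), robust dispersion (0.0484) and the fit without B35 replicate 2 (0.0327), and its adjusted p ran from 0.0303 to 0.142 over all 15.

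SNAI2, encoding the related factor SLUG, lay at nearly the same level in both groups (ENSG00000019549, chromosome 8, 48917604 to 48921740, minus strand). It was at 27.3, 25.9 and 29.3 CPM in untreated and 31.1, 29.3 and 23.5 CPM in B35 libraries, so the groups overlapped. The log2 difference was 0.025 ± 0.13 (edgeR adjusted p = 0.922), with a 95% interval from -0.25 to 0.30. ZEB1, which represses CDH1 and the miR-200 family, was at 34.0, 22.2 and 28.0 CPM in untreated and 42.4, 30 and 32.2 CPM in B35 libraries (ENSG00000148516, chromosome 10, 31318495 to 31529814, plus strand). The groups overlapped, with replicate 1 the highest of both. Its log2 difference of 0.31 ± 0.17 did not pass (edgeR adjusted p = 0.242, 95% interval -0.063 to 0.69), nor in any of 15 alternatives. ZEB1 shares 366 exon bases with ZEB1-AS1, which held 359 counts against 3383 for ZEB1 over the 6 libraries. Whether SNAI1 and SNAI2 differ in their response was not tested.

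Neither ligand passed the test. TGFB1, the ligand most tied to EMT, was at 159, 163 and 158 CPM in untreated and 166, 190 and 203 CPM in B35 libraries (ENSG00000105329, chromosome 19, 41301587 to 41353911, minus strand). All B35 libraries were higher, replicate 1 only slightly so. Its log2 difference was 0.22 ± 0.096 (edgeR adjusted p = 0.149). Without B35 replicate 1 it passed (log2 0.29, edgeR adjusted p = 0.0162), the only 1 of 15 alternatives in which it did. TGFB1 shares 215 exon bases with HNRNPUL1 on the other strand, which held more counts (51637 against 18651 over 6 libraries). TGFB2, a second isoform with its own receptor requirements, was at 35.5, 30.3 and 35.4 CPM in untreated and 53.7, 38.5 and 38.1 CPM in B35 libraries (ENSG00000092969, chromosome 1, 218346235 to 218444619, plus strand). Again the groups did not overlap, but here replicate 1 was far above the other B35 libraries. Its log2 difference of 0.36 ± 0.14 did not pass (edgeR adjusted p = 0.111), and it passed once GC and length trends were taken out (0.0104). TGFB2 shares 1371 exon bases with TGFB2-OT1 on the same strand, which is listed at 0, and reads in those bases may have been given to neither gene.

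TGFBR2, the receptor that binds the ligands, was at 92.3, 93.1 and 105 CPM in untreated and 129, 109 and 108 CPM in B35 libraries (ENSG00000163513, chromosome 3, 30606502 to 30694142, plus strand). The groups came close without overlapping. The log2 difference of 0.25 ± 0.10 did not pass (edgeR adjusted p = 0.132), and it passed once GC and length trends were taken out (0.0463). SMAD7, the inhibitor, was the only member with a negative difference (ENSG00000101665, chromosome 18, 48919853 to 48952052, minus strand). Its untreated libraries held 43.4, 48.7 and 46.3 CPM and its B35 libraries 32.5, 47.2 and 46.2 CPM, so 1 B35 library was low and the others lay within the untreated range. The log2 difference was -0.14 ± 0.14 (edgeR adjusted p = 0.558, 95% interval -0.44 to 0.17), and without B35 replicate 1 it was 0.017 (0.915).

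**Figure D2:**
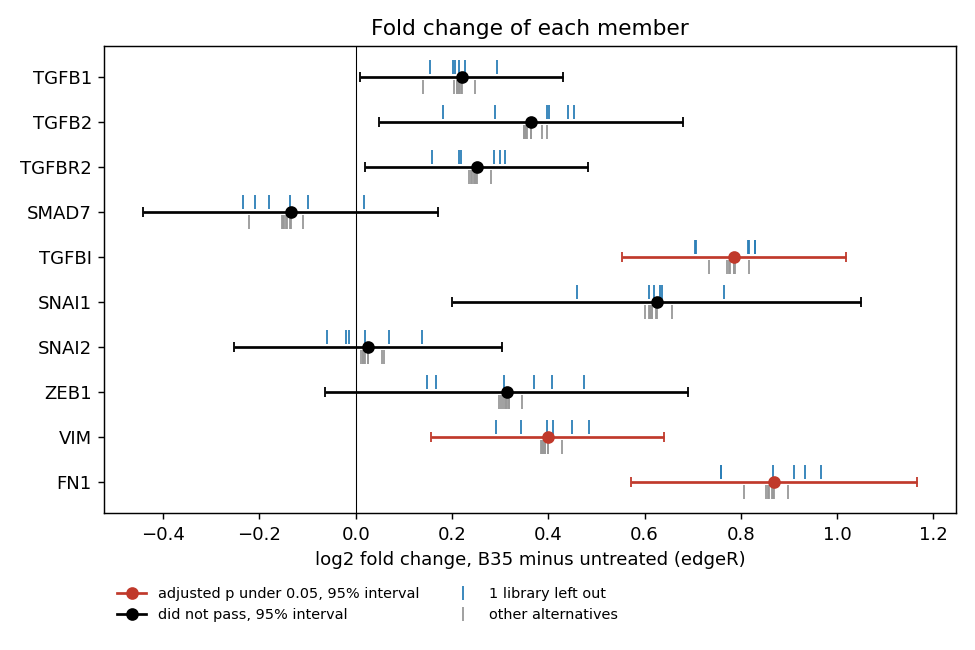
Log2 fold change of each member (x axis, B35 minus untreated, edgeR) with its 95% interval, red where the adjusted p was under 0.05, and ticks for 15 alternatives (blue above with 1 library left out, grey below for the others). TGFBI, FN1 and VIM are red, and 9 of the 10 points lie to the right of 0.

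B35 replicate 1 was the highest of the B35 libraries in 8 of the 10 members and the lowest in the other 2, TGFB1 and SMAD7. Over all genes tested it was highest in 39.8% and lowest in 39%. Against the mean of the untreated libraries, its log2 difference was 0.68 for TGFB2, where replicates 2 and 3 had 0.19 and 0.18. It was 0.62 for ZEB1 (0.12 and 0.22 in the others) and 0.59 for VIM (0.37 and 0.22). For TGFBI the 3 libraries were closer, at 0.93, 0.69 and 0.74. With this library left out, 4 members rose (VIM, FN1, TGFBI and TGFB1) and none fell (edgeR, against 12.1% and 10.1% of all genes). The log2 fold changes were then 0.29 for VIM, 0.76 for FN1 and 0.71 for TGFBI. The part of whatever sets this library apart, including its mitochondrial share, in the members' values was not tested.

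**Figure D3:**
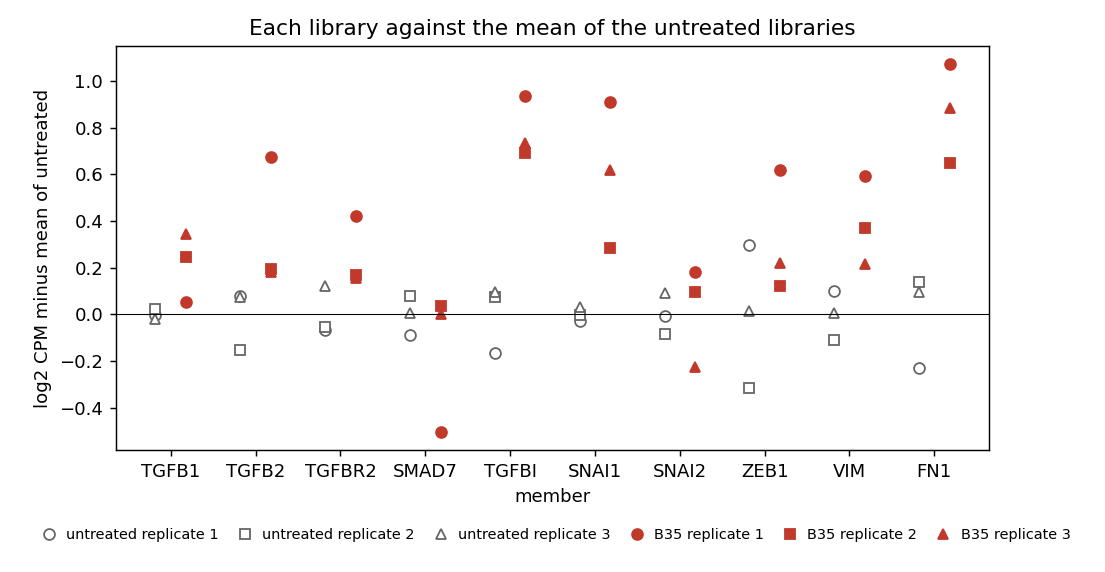
Log2 CPM of each library minus the mean of the 3 untreated libraries (y axis) for each member, with untreated libraries as open and B35 libraries as red symbols. B35 replicate 1 (red circle) is the top B35 point for 8 members and the bottom one for TGFB1 and SMAD7, where it sits at 0.055 and -0.50.

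Levels can be compared between genes only per length, for which the deposited FPKM values (counts scaled for exon length and library total) were used. That length is all annotated exons of a gene merged, such as 17315 bases for FN1 and 1686 for SNAI1. It is not the length of the transcripts present, so the order below depends partly on the annotation. In untreated cells the order by mean FPKM was VIM (58.9 ± 4.28, SD, n = 3), TGFB1 (49.2 ± 0.656), TGFBI (22.1 ± 2.17), TGFBR2 (20.5 ± 1.57), SMAD7 (9.12 ± 0.522), SNAI2 (8.07 ± 0.521), TGFB2 (6.52 ± 0.583), ZEB1 (3.23 ± 0.680), SNAI1 (2.72 ± 0.0600) and FN1 (2.10 ± 0.282). Neighbours that overlapped over the libraries were TGFBI with TGFBR2, SMAD7 with SNAI2, and ZEB1 with SNAI1. In B35 cells TGFBI, at 37.7 ± 3.42 FPKM, no longer overlapped TGFBR2, at 24.1 ± 2.58 FPKM. TGFB2 (8.31 ± 1.7 FPKM), SMAD7 (8.22 ± 1.62) and SNAI2 (8.13 ± 1.19) overlapped there. FN1 still had the lowest mean at 3.79 ± 0.540 FPKM, and it now overlapped ZEB1 (3.97 ± 0.747) and SNAI1 (4.15 ± 0.877). Within each library the FPKM of TGFB1 was 7.09 to 8.54 times that of TGFB2 in untreated and 4.92 to 8.47 times in B35 cells, and these ranges overlap. If reads in the 1371 of 5151 exon bases that TGFB2 shares with TGFB2-OT1 were dropped, the FPKM and rank of TGFB2 are too low. These ratios would then be too high. The FPKM of SNAI2 was 2.80 to 3.10 times that of SNAI1 in untreated and 1.65 to 2.60 times in B35 cells. The FPKM ratio of vimentin to keratin 8, VIM to KRT8, was 0.226 to 0.258 in untreated and 0.403 to 0.653 in B35 cells, and both genes moved. KRT8 was chosen after its values were seen. The ratio of VIM to KRT18 was 0.35 to 0.37 in untreated and 0.50 to 0.64 in B35 cells. KRT18 itself did not pass (edgeR adjusted p = 0.143), and KRT7 was nearly level (log2 0.0065, edgeR adjusted p = 0.972). KRT8 shares 525 exon bases with KRT18.

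The rest of the pathway was read from 8 lists with 158 further genes, of which 123 were tested. Of these, 34 rose and 12 fell (27.6% and 9.76%, against 8.82% and 6.59% of all genes tested). Their median log2 fold change was 0.17. The shares of all genes apply to each list below, with 16.6% and 14.1% at an unadjusted p under 0.05. The lists were chosen with earlier results of these data known, so a difference from all genes is no test of them. The rises among the 123 genes numbered 22 without untreated replicate 1 or 3, where 4.36% and 3.87% of all genes rose. Once GC and length trends were taken out 22 of these genes fell, in a fit where all genes split into 1853 higher and 2170 lower.

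Of 19 tested ligands and latency or activation factors, 6 rose and 2 fell. LTBP2, a latent TGF-beta binding protein of the matrix, rose from 1.08 ± 0.263 to 3.16 ± 0.324 CPM (SD, n = 3 each). ITGB8, an integrin chain that activates latent TGF-beta, rose 2-fold (log2 1.0 ± 0.17, edgeR adjusted p = 0.00410). GDF15, a stress-induced member of the family, rose 1.68-fold and BMP2, a bone morphogenetic protein, 1.43-fold. INHBA, encoding the activin A subunit, passed on 3 to 21 counts per library (edgeR adjusted p = 0.0348) and lost its call without any 1 library other than B35 replicate 3, and with DESeq2. FST, encoding the activin inhibitor follistatin, rose 1.54-fold (edgeR adjusted p = 0.0237). The falls were FSTL3, also a secreted inhibitor of activin, at 1.56-fold lower, and BMP4 at 2.40-fold lower. The 2 activin inhibitors thus moved in opposite directions. BMP4 lost its call without untreated replicate 3 (edgeR adjusted p = 0.0624). The rises in this list numbered 10 without B35 replicate 1 and 11 once GC and length trends were taken out. They numbered 4 without untreated replicate 1, untreated replicate 2 or B35 replicate 2. The shares of all genes that rose in these fits were, in the same order, 12.1%, 12.5%, 4.36%, 5.2% and 6.14%.

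Of 10 other receptors 3 rose and none fell in edgeR, DESeq2 and limma-voom, with 1 lower at an unadjusted p under 0.05. ACVRL1, encoding the type I receptor ALK1, had the largest fold. It was at 1.84, 2.27 and 1.49 CPM in untreated and 5.71, 8.05 and 6.69 CPM in B35 libraries, 3.64-fold higher (edgeR adjusted p = 0.000776). The activin receptors ACVR1B and ACVR2B rose 1.60-fold and 1.49-fold. ACVR2B lost its call without untreated replicate 1 or 3 or B35 replicate 2 or 3 (edgeR adjusted p = 0.0778, 0.1, 0.0543 and 0.0546). TGFBR1, the partner of TGFBR2, was at 62.9 CPM in untreated and 63.7 CPM in B35 cells (log2 0.018 ± 0.091, edgeR adjusted p = 0.924).

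Among 20 tested SMAD proteins and regulators 2 rose and 1 fell, shares of 10% and 5% that are close to those of all genes. SMAD3, which carries the TGF-beta signal to DNA, rose 1.36-fold from 86.7 ± 3.94 to 118 ± 3.52 CPM, and lost its call without untreated replicate 3 (edgeR adjusted p = 0.0550). TGIF1, a corepressor of SMADs, rose 1.25-fold. SMAD6, the inhibitory SMAD of the BMP branch, was 1.30-fold lower. TGIF1 lost its call without any 1 of the libraries other than B35 replicate 1 (edgeR adjusted p = 0.0583 to 0.146). It also lost its call when every gene with a count was kept, and so held in 9 of 15 alternatives. SMAD6 lost its call without any 1 of the untreated libraries or B35 replicate 2 (0.0596 to 0.114).

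**Figure D4:**
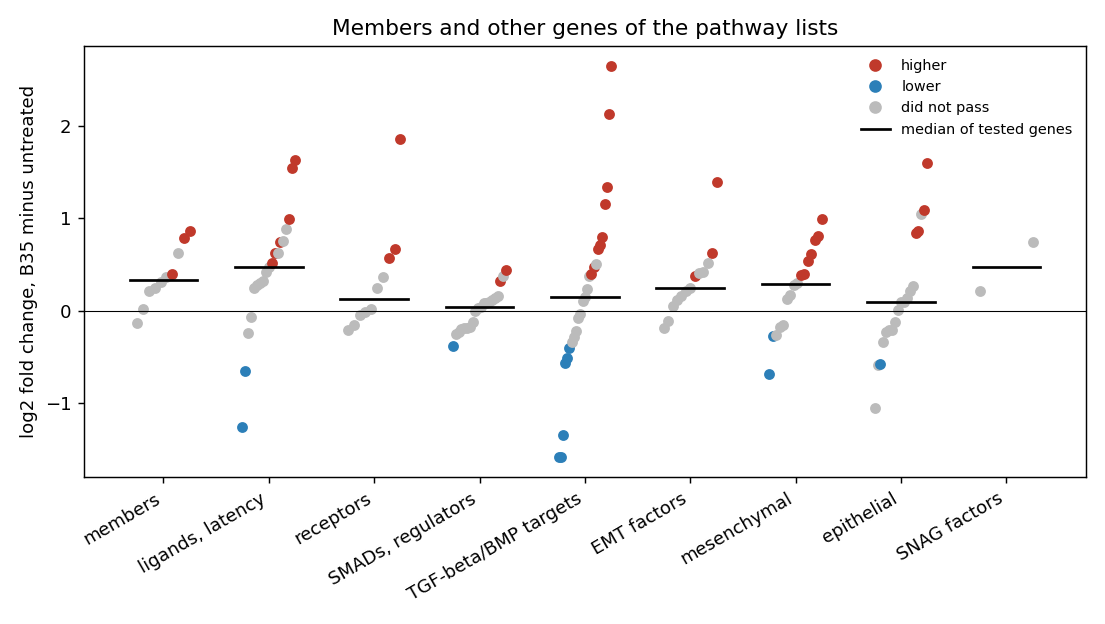
Log2 fold change (y axis, B35 minus untreated) of every tested gene of the members and of the 8 pathway lists, red where higher, blue where lower and grey where the test was not passed, with the median of each list as a bar. Targets of TGF-beta and BMP spread furthest, from CCN2 and TAGLN at -1.58 to IGFBP3 at 2.65.

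Targets of TGF-beta and BMP split, and of 25 tested 9 rose and 6 fell. CCN1 and CCN2, which respond to TGF-beta and also to YAP, were 2.54-fold and 3.0-fold lower. IGFBP3, which binds insulin-like growth factors, rose 6.30-fold, and ANGPTL4, a lipoprotein lipase inhibitor, 4.39-fold. The exons of ANGPTL4 overlap RAB11B-AS1 by only 1 base. CDKN2B, the cyclin-dependent kinase inhibitor p15 and a TGF-beta target that lies beside CDKN2A, rose from 12.4 ± 0.646 to 21.6 ± 2.60 CPM.

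Of 13 tested EMT factors and epithelial regulators outside the set, 3 rose and none fell in edgeR, DESeq2 and limma-voom, and none was lower at an unadjusted p under 0.05. SOX9 rose 2.63-fold from 2.66 ± 0.475 CPM and FOXC2, a forkhead factor of mesenchymal cells, 1.55-fold from 37.1 ± 2.10 CPM. FOXC2 shares exon bases with FOXC2-AS1. SOX4 rose 1.30-fold and lost its call without any 1 of the libraries other than B35 replicate 1 (edgeR adjusted p = 0.0901 to 0.146). TWIST1 was at 1.95 CPM in untreated and 2.80 CPM in B35 cells and ZEB2 at 6.62 and 7.88 CPM, and neither passed (edgeR adjusted p = 0.282 and 0.455). Once GC and length trends were taken out 2 of the list fell, in a fit where 14.7% of all genes fell. Among the epithelial factors of the list, ELF3 was at 175 CPM in untreated and 197 CPM in B35 cells, ESRP2 at 56.1 and 49.5 CPM, FOXA1 at 9.44 and 12.5 CPM and GRHL1 at 3.30 and 4.43 CPM. None of these passed (edgeR adjusted p = 0.0577 to 0.340). ESRP1 and FOXA2 had no count in any library and GRHL2 had 1.

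Of 16 mesenchymal genes tested, 7 passed as higher and 2 as lower (43.8% and 12.5%). Of 19 epithelial genes 4 and 1 did (21.1% and 5.26%), against 8.82% and 6.59% of all genes. At an unadjusted p under 0.05 the mesenchymal counts were 9 and 3, and the epithelial ones 5 and 6, against 16.6% and 14.1% of all genes. The fibronectin receptor chain ITGA5 rose 1.7-fold, beside the 1.83-fold rise of its ligand FN1. LOXL2, a collagen cross-linking oxidase whose exons overlap ENTPD4, rose 1.75-fold, the urokinase gene PLAU 1.54-fold and N-cadherin, CDH2, 1.46-fold from 26.6 ± 2.85 to 38.7 ± 2.60 CPM. CDH2 lost its call without untreated replicate 1 or 3 (edgeR adjusted p = 0.0519 and 0.0719). The falls were MYL9, a myosin light chain, at 1.61-fold, and MSN, the membrane linker moesin, at 1.21-fold. MSN lost its call in 8 of 15 alternatives. The mesenchymal rises numbered 3 without untreated replicate 1 or 3, where 4.36% and 3.87% of all genes rose. On the epithelial side CLDN1 and CLDN4, tight junction claudins, rose 1.82-fold and 1.79-fold, P-cadherin, CDH3, 3.03-fold and EPCAM 2.14-fold. KRT8 was 1.49-fold lower. CDH1, the classical target of SNAI and ZEB repressors, was at 1.12, 1.55 and 1.37 CPM in untreated and 1.19, 0.5 and 0.264 CPM in B35 libraries (edgeR adjusted p = 0.154). Genes of both lists thus rose, and no test compared the lists. DESeq2 and limma-voom gave the same counts in both lists. The falls among epithelial genes numbered 3 without B35 replicate 1 and 4 once GC and length trends were taken out, against 10.1% and 14.7% of all genes.

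Other factors with a SNAG domain were scarcely expressed. Of 6 listed, only GFI1 and SNAI3 had enough counts, and none passed in edgeR, DESeq2 or limma-voom or at an unadjusted p under 0.05. GFI1, a repressor known to bind LSD1, was at 0.825 ± 0.303 CPM in untreated and 1.39 ± 0.314 CPM in B35 cells (edgeR adjusted p = 0.200), and SNAI3 at 0.457 and 0.526 CPM. KDM1A, the gene of LSD1 itself, was at 198 ± 2.56 and 184 ± 8.97 CPM (edgeR adjusted p = 0.432).

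The genes with the pattern most like those of TGFBI and FN1 were sought by the root mean square difference of centred log2 CPM over the 6 libraries. For TGFBI they were GLCE, ATXN1 and NOP14-AS1, with differences of 0.0494 to 0.0569. For FN1 they were IFI44, CA12 and TLR6, with 0.0671 to 0.0784. The profiles of TGFBI and FN1 themselves had a root mean square of 0.408 and 0.461. These 6 genes had log2 fold changes of 0.77 to 0.96. They were picked for likeness over the same 6 libraries, so fold changes near those of TGFBI and FN1 follow from the choice.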

How the data were processed

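Libraries were made with a NEBNext Ultra kit, per the labels' protocols, and the submitters' processing notes name HISAT2 2.0.5, featureCounts 1.5.0-p3 and the build hg38. The strand setting and the annotation are not given in the sources used here. The authors deposited whole-number counts and FPKM per gene. All 58735 identifiers are in GENCODE 29. The deposited FPKM scales each count by merged exon length and by a total that is 0.982 to 1.05 times the summed counts, and was used only for levels between genes.

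Counts were tested in R 4.3.3 with edgeR 4.0.16 (filterByExpr with a minimum count of 10, TMM scaling, glmQLFit and glmQLFTest, two-sided), adjusted over 14773 genes. The SE is the log2 fold change divided by the square root of F. The test was run on simulated data with 14580 genes and recovered 40.9%, 77.3% and 96.8% of genes changed 1.5-, 2- and 4-fold, with 13 false among 151 calls. Only 66, 66 and 62 genes were changed at these folds, far fewer than the 2276 called in the data. The adjusted threshold was thus stricter there, and these shares do not give the power of the test on the data. Alternatives included DESeq2 1.42.0, limma-voom (limma 3.58.1) and removal of trends on GC content and exon length.

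The members and lists were chosen with earlier results of these data known. Named genes were the members, KDM1A, up to 4 genes with the lowest adjusted p among those past the threshold in each list (else the 2 with the highest CPM), and the 3 nearest profiles of each of the 2 members with the smallest p. A gene this rule selects is not reported here. Other genes named, such as INHBA, FSTL3, BMP4, CCN2, TAGLN, CDKN2B, MYL9, MSN, KRT8, CDH1, TGFBR1, TWIST1, ZEB2 and the epithelial factors, were chosen after their values were seen. Replicate libraries differed by more than counting noise (chi-square per degree of freedom 4.46 to 32.3).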

Additional observations from a re-analysis of the deposited data

How the results depend on the processing

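In 15 alternatives no member fell, and FN1 and TGFBI rose in every one. The members that rose numbered 2 to 4 with 1 library left out and 5 once GC and length trends were taken out. With the replicate number as a block 5 rose, against 10.8% of all genes (8.54% lower), SNAI1 and TGFB2 being added, but the numbers are not known to pair the libraries: same-numbered libraries had correlations of 0.163, 0.0162 and -0.0630 in their deviations from the group means. Genes changed numbered 2276, 4023 once the trends were taken out and 881 to 3342 with 1 library left out. Other pathway genes that rose numbered 22 to 45 with 1 library left out (34 with all), and those that fell 22 once the trends were taken out and 8 to 16 with 1 library left out (12 with all). Signs reversed only where the change did not pass: SNAI2 was -0.021, -0.059 and -0.014 without untreated replicate 2, B35 replicate 1 and B35 replicate 2, SMAD7 0.017 without B35 replicate 1, and SNAI3 -0.047 and -0.025 without untreated replicate 1 and B35 replicate 3. With 1 library left out these log2 differences ran from -0.059 to 0.137 for SNAI2, from -0.234 to 0.017 for SMAD7 and from -0.047 to 0.561 for SNAI3. The cause of these shifts was not tested. The median of all genes stayed within 0.1 of 0 on the log2 scale under each scaling. Counts limit SNAI1, with 79 to 153 per library, more than the other members.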
